A study of Mus musculus with 96 samples.

Results

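The connecting tubule (CNT) and the cortical collecting duct (CCD) are neighbouring stretches of the mouse kidney tubule, and the comparison described here sets the polyadenylated RNA of dissected CNT pieces against that of dissected CCD pieces. Earlier results of these data were known when the samples were chosen. The samples were taken by label: every column of the transcript table that carries a mouse number and the name CNT or CCD. This gave 13 samples of the 93 from dissected tubule segments and glomeruli, and 8 mouse numbers of the 53 counted within segments. The CNT was represented by 3 mice with 2 pieces each, 6 samples in all. The CCD was represented by 5 mice and 7 samples, with 2 pieces from mice 3 and 5 and 1 piece from mice 1, 2 and 4. All were male C57BL/6 mice of 6 to 8 weeks on normal chow, with no treatment or engineered allele named in the labels. Tubules were dissected by hand under a microscope, and full-length cDNA was amplified from the small amount of RNA with the SMARTer V4 kit before Nextera XT libraries were made. The series counts as many mice as there are combinations of mouse number and segment. The mice of both segments were therefore treated as separate animals. The p-values measure spread between mice within a group, which the main fit pooled over 15 segment and glomerulus groups. A fit to the CNT and CCD mice alone and the permutation test used these mice only.

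The distal convoluted tubule (DCT) empties into the CNT, the CNT into the CCD, and the CCD into the outer medullary collecting duct (OMCD). The CNT is generally held to form from the nephron itself and the collecting duct from the ureteric bud, yet both contain principal-type cells, which take up sodium and water, and intercalated cells, which move acid and base. The CNT is known for calcium reabsorption through an apical channel, a cytosolic binding protein and basolateral export, and for the secretion of tissue kallikrein. The CCD is known for water reabsorption under vasopressin.

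Values are TPM, an abundance per transcript length in which all genes of a sample sum to the same total, so the number of reads behind a value is unknown. The value of a mouse is the mean of its pieces. Differences are CNT minus CCD on the log2(TPM + 1) scale, which understates the change of genes near 0, with the standard error (SE) and Benjamini-Hochberg adjusted p from limma. A gene is called higher in a segment where the adjusted p is under 0.05 and the difference is at least 1 on the log2 scale. Of 33793 genes tested, 378 were called, or 1.12%. Of these, 148 were higher in CNT (0.438% of the genes tested) and 230 were higher in CCD (0.681%). No CNT mouse overlapped a CCD mouse in 145 of the 148 and in 223 of the 230, while over all genes tested 1503 (4.45%) had every CNT mouse above every CCD mouse and 3476 (10.3%) the reverse. The mean of log2(TPM + 1) was higher in CNT for 29.1% of all genes and higher in CCD for 60.9%, and the rest were equal. The counts of members given for each list are to be read against these shares of all genes. Many of these genes passed the filter through other segments: the same filter on CNT and CCD mice alone kept 13885. Genes near 0 in both segments seldom separate, so these shares may be too low for lists of abundant genes. The shares among abundant genes were not counted. The share of calls that were higher in CNT was 39.2%, and it became 49.4% when samples were rescaled by median ratios and 58.6% after quantile normalization. Without CNT mouse 3 the calls numbered 219, of which 115 were higher in CCD, and without CNT mouse 1 those higher in CCD numbered 147.

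The fit shared 1 estimate of spread over all 15 segment and glomerulus groups. A fit to the CNT and CCD mice alone tested 13885 genes and called 519 (3.74%), 185 higher in CNT (1.33%) and 334 higher in CCD (2.41%). It made 373 of the 378 calls again. Its adjusted p is given below as the p of the CNT and CCD fit where it changes the call of a named gene, and its count of calls where that changes for a list. That fit filtered on its own mice, so it tested fewer genes of some lists. Pieces of one mouse correlated with a median Pearson r of 0.9855 (5 pairs, 10317 genes), different mice of one segment with 0.98 (31 pairs) and CNT with CCD with 0.961 (42 pairs). These are correlations across genes, which are not independent replicates. At 1 TPM or more, 13241 ± 116 genes were listed per CNT mouse and 13627 ± 163 per CCD mouse (SD, n = 3 and 5), a difference of -386. Every CCD mouse lay above every CNT mouse, and the two-sided exact permutation p was 0.0357, the smallest that 3 against 5 mice can give.

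**Figure D1:**
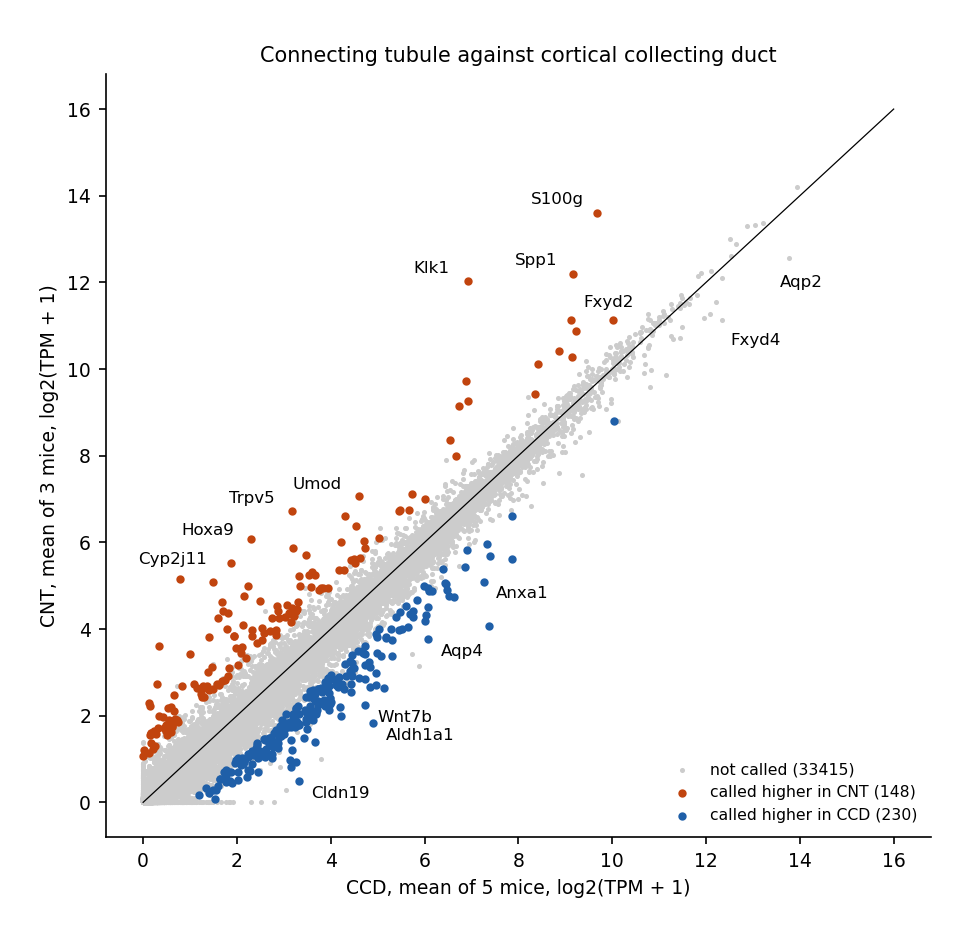
Mean level of each tested gene in CCD (x axis) against CNT (y axis), both in log2(TPM + 1), with called genes in colour and selected genes labelled, called or not. Most genes lie along the diagonal, with 148 coloured genes above it and 230 below it.

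Most of the calcium transport path was higher in CNT. Of 19 tested genes of calcium and magnesium handling, 9 were called higher in CNT and none in CCD, beside 0.438% and 0.681% of all genes. The 9 include Klk1, the kallikrein gene described further on, which counts again in its own family. The median difference of the 19 was 0.81, against -0.02 over all genes tested. Taken in the order of the transport path, the apical calcium channel Trpv5 stood at 108, 80.2 and 132 TPM in CNT mice 1 to 3 and at 9.46, 5.02, 11.3, 7.23 and 8.44 TPM in CCD mice 1 to 5 (log2 difference 3.55, SE 0.25, adjusted p 2.08e-14). The lowest CNT mouse lay far above the highest CCD mouse. S100g, which encodes the small cytosolic calcium carrier calbindin-D9k, was listed at 11730.2, 10875 and 15429.6 TPM in the CNT mice and 1158, 584, 1470.1, 520.0 and 753 TPM in the CCD mice (log2 difference 3.93, SE 0.39, adjusted p 1.01e-09). Calb1, the larger calbindin, was listed at 1087, 1321 and 1751 TPM and 506, 419, 529.9, 419 and 469 TPM (log2 difference 1.54, SE 0.33, adjusted p 0.0042). The groups did not overlap for either calbindin, and the call of Calb1 was lost without CNT mouse 3. It was also lost when 0.1 instead of 1 was added to each TPM (adjusted p 0.429).

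The exchanger of basolateral export and several genes of hormonal control differed in the same direction. The sodium-calcium exchanger Slc8a1 stood at 40.0, 46.7 and 75.2 TPM in the CNT mice and 11.4, 8.04, 13, 9.48 and 9.58 TPM in the CCD mice (log2 difference 2.24, SE 0.22, adjusted p 4.49e-10). The calcium pump Atp2b4 was low in both, with 1.1, 1.5 and 1.04 TPM against 0.06, 0.04, 0.115, 0.08 and 0.19 TPM (log2 difference 1.01, SE 0.21, adjusted p 0.00269), and its call was lost without CNT mouse 2, CCD mouse 1 or CCD mouse 2. It was also lost with 5 instead of 1 added to each TPM and after median ratio rescaling (log2 differences 0.28 and 0.94). Among receptors for calcium-regulating hormones, the parathyroid hormone receptor Pth1r was at 24.9, 22.5 and 25.4 TPM in the CNT mice and 3.5, 3.55, 5.78, 7.26 and 3.96 TPM among CCD mice (log2 difference 2.15, SE 0.29, adjusted p 1.91e-06). The groups overlapped in none of these 3 genes. The vitamin D receptor Vdr was at 125, 159.7 and 135 TPM and 50.4, 50.5, 57.2, 41.7 and 62.5 TPM (log2 difference 1.40, adjusted p 0.00409). The Vdr call was lost when 0.1 instead of 1 was added to each TPM (adjusted p 0.352). Klotho, encoded by Kl and known as a co-receptor for a phosphate-regulating hormone, was at 579, 527 and 775 TPM and 126, 92, 161, 124 and 113 TPM (log2 difference 2.33, adjusted p 2.94e-06). The CNT levels lay below those of the DCT and above those of the OMCD. Pth1r averaged 569 ± 115 TPM in 3 DCT mice and 1.14 ± 0.148 TPM in 4 OMCD mice, and Trpv5 averaged 156 ± 29 TPM and 0.762 ± 0.466 TPM there. Not all calcium genes followed. The more abundant calcium pump Atp2b1 was at 37.2, 31.2 and 34.5 TPM in the CNT mice and 42.9, 40.3, 36.5, 37.8 and 44.6 TPM in the CCD mice, a higher mean in CCD without a call and with overlap (log2 difference -0.23, adjusted p 0.609). The related channel Trpv6 was at 12.4, 13.7 and 12.1 TPM in the CNT mice and 16.5, 19.5, 18.4, 19.3 and 21.6 TPM in the CCD mice (log2 difference -0.55, SE 0.22, adjusted p 0.399). It lay the other way round, with every CCD mouse above every CNT mouse, but without a call. The calcium-sensing receptor Casr ran from 49.7 to 50.5 TPM in CNT and from 48.2 to 57.9 TPM in CCD.

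**Figure D2:**
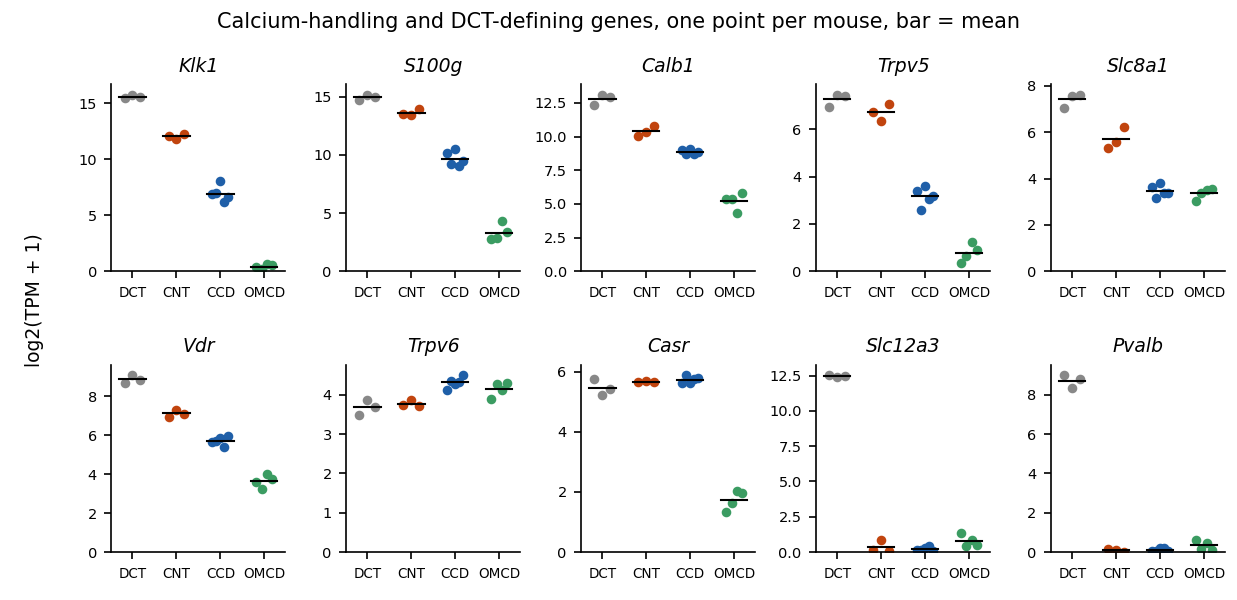
Level of calcium-handling genes and of the DCT-defining Slc12a3 and Pvalb in log2(TPM + 1) on the y axis, with DCT, CNT, CCD and OMCD on the x axis, 1 point per mouse and a bar at the mean. For Klk1, S100g, Calb1, Trpv5, Slc8a1 and Vdr the 3 CNT points lie above the 5 CCD points and below the DCT mean, and for Slc12a3 and Pvalb both segments lie near 0.

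Tissue kallikrein showed the largest difference of any gene named here. Klk1, a secreted protease that the CNT is known to release, was listed at 4285, 3453 and 4940.1 TPM in the CNT mice and 114, 121, 256, 71.4 and 104 TPM in the CCD mice (log2 difference 5.10, SE 0.36, adjusted p 2.22e-14). The 3 CNT mice were close together, whereas CCD mouse 3 stood above the other CCD mice. DCT had still more, 48966 ± 5776 TPM, and OMCD had 0.346 ± 0.186 TPM. Klk1 has many near-identical copies, the Klk1b genes, between which reads may have been split: 9 of the 14 tested members of the family including Klk1 were called higher in CNT and none in CCD, beside 0.438% and 0.681% of all genes, with a median difference of 1.23. When 5 instead of 1 was added to each TPM, only Klk1 and Klk1b5 of these 9 were still called. When 0.1 was added, the calls of Klk1b24, Klk1b3 and Klk1b8 were lost and Klk1b1 was called. The summed level of the family ran from 3488 to 4989.7 TPM in CNT and from 79.4 to 267 TPM in CCD, nearly all of it Klk1. Klk1b5 was the next most different, with 16.3, 13.8 and 15.3 TPM against 1.69, 3.17, 2.88, 2.2 and 2.58 TPM, and these smaller values cannot be told apart from reads of Klk1 given to a copy.

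The start regions of 3 of these genes are shown because the genes differ most among the calcium and kallikrein genes. The sequences are the reference promoters of RefSeq on GRCm38.p6, 250 bases before to 50 bases after the annotated start, written 5′ to 3′ on the gene's strand. Capitals mark matches on either strand to 4 motifs. These are AGGTCA, the half-site of nuclear hormone receptors, then TATAAA, known as the TATA box, then CCAAT, known as the CCAAT box, and GGGCGG, known as the GC box. A match on the other strand appears as the reverse complement, for example TGACCT for the half-site. Klk1 lies at chr7:44225110-44225409 on the plus strand, S100g at chrX:162964550-162964849 on the minus strand and Trpv5 at chr6:41680674-41680973 on the minus strand. Calb1 did not match an entry.
Klk1: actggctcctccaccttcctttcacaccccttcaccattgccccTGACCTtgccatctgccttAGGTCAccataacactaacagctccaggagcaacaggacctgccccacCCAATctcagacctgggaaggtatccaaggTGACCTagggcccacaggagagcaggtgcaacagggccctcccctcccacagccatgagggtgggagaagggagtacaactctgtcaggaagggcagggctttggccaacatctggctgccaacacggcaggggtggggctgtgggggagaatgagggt
S100g: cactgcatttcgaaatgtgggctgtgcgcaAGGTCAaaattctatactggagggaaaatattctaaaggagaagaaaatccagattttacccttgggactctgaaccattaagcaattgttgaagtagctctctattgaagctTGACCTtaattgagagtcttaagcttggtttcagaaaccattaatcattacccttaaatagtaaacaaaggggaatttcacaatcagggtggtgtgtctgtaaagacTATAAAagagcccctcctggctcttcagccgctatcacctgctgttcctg
Trpv5: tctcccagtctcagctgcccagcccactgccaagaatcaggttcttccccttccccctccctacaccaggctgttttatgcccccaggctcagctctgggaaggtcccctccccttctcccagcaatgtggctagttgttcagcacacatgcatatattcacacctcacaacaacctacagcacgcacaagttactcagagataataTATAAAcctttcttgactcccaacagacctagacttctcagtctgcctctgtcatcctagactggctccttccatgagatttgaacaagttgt
AGGTCA occurs 3 times in the Klk1 window, beginning at -206, -187 and -109 from the start, and 2 times in the S100g window, at -220 and -107. Of all 32851 promoters of the same length, 16.3% hold it at least once. TATAAA occurs at -43 in Trpv5 and at 1 in S100g, and 13.6% of all promoters hold it. A match is only a description of the letters.

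Hox genes, which encode transcription factors laid out in 4 clusters and used for position along the embryo, held calls in 3 of the clusters. The calls in cluster C were lost when 5 instead of 1 was added to each TPM, as given below. Whether the clusters differ was not tested. Of the 36 Hox entries tested (Hoxd4 is listed under 2 identifiers), 7 were called higher in CNT, beside 0.438% of all genes, and none in CCD. All 7 belong to clusters A, C and D, where 7 of 27 were called and the median difference was 0.29. Of these 27, 18 had the higher mean in CNT and 9 in CCD, and 3 had every CCD mouse above every CNT mouse, beside 10.3% of all genes, against 15 the reverse, beside 4.45%. In cluster B none of 9 was called by limma, nor any of the 7 tested in the CNT and CCD fit (unadjusted p under 0.05 for 6), the median was -0.56, and 8 of 9 had the higher mean in CCD. Of these 9, 5 had every CCD mouse above every CNT mouse, beside 10.3% of all genes, and 0 the reverse, beside 4.45%. Hoxa9 stood at 53.6, 38.4 and 45.7 TPM in the CNT mice and 2.64, 3.4, 3.36, 1.48 and 2.92 TPM in the CCD mice (log2 difference 3.65, SE 0.16, adjusted p 1.88e-21). Hoxd10 stood at 70.5, 56.3 and 75.4 TPM and 5.48, 1.98, 5.25, 4.49 and 3.46 TPM (log2 difference 3.78, SE 0.31, adjusted p 5.86e-12). Hoxa10 stood at 37.8, 29.4 and 32.8 TPM and 2.37, 0.79, 3.29, 1.56 and 1.68 TPM (log2 difference 3.60, SE 0.23, adjusted p 1.13e-15). The groups were far apart in all of these, and the highest CCD value among them was 5.48 TPM of Hoxd10.

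The other called Hox genes were lower in level. Hoxa7 was listed at 20.8, 17.1 and 17.3 TPM in CNT and 2.05, 1.62, 2.23, 2.89 and 1.52 TPM in CCD (log2 difference 2.67, adjusted p 9.03e-15). Hoxc10, at 4.75, 2.6 and 3.99 TPM, was higher than the 0.11, 0.06, 0.145, 0.14 and 0.085 TPM of CCD (log2 difference 2.07, adjusted p 1.52e-07). Hoxc6 and Hoxc9 differed by 1.42 and 1.22 on the log2 scale. When 5 instead of 1 was added to each TPM, the calls of Hoxc6, Hoxc9 and Hoxc10 were lost (log2 differences 0.45, 0.38 and 0.77). No call then remained in cluster C. When 0.1 was added, Hoxa3, Hoxa5 and Hoxd11 were called higher in CNT as well. For comparison with the tubule upstream, Hoxa9 averaged 60.6 ± 3.9 TPM in DCT and 48.6 ± 3.39 TPM in the cortical thick ascending limb, but 2.71 ± 0.945 TPM in OMCD. Hoxd10 averaged 125 ± 6.1 TPM in DCT and 2.08 ± 1.37 TPM in OMCD. Cluster D was not uniform, since Hoxd3 had values of 22.5, 31.8 and 23.9 TPM in CNT against 51.7, 50.7, 45.6, 45.5 and 48.4 TPM in CCD (log2 difference -0.89, adjusted p 0.0118), which is under the required size of 1. In cluster B, Hoxb2 had 23.4, 25.4 and 22.1 TPM against 35.1, 45.1, 37.7, 38.3 and 35.8 TPM (log2 difference -0.68, adjusted p 0.000181) and Hoxb6 had 59.5, 55.8 and 50.9 TPM against 82.8, 95.5, 81.8, 90.8 and 82 TPM (log2 difference -0.64, adjusted p 0.00029). Both were separated between all mice of the segments, but at less than the required size.

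**Figure D3:**
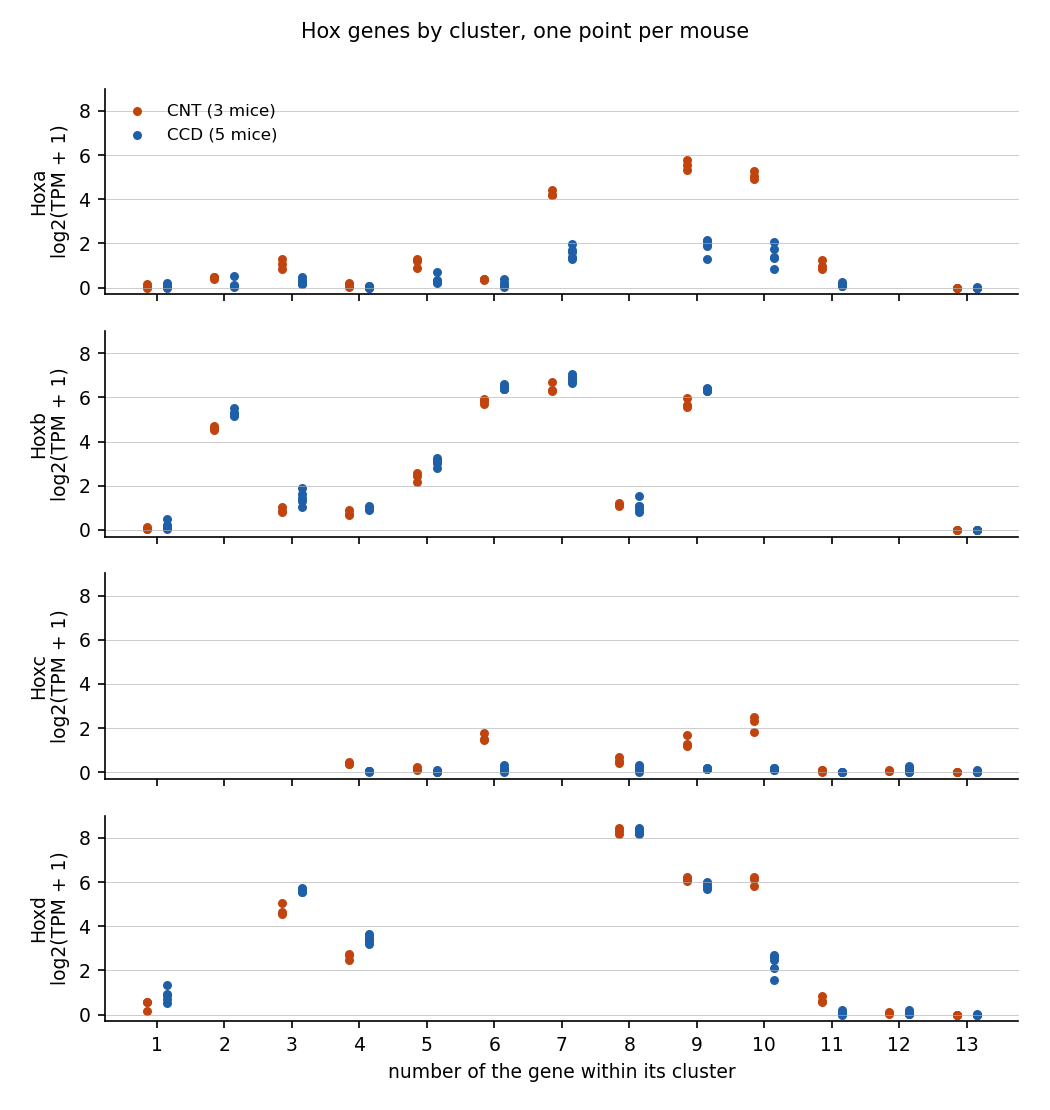
Level of each Hox gene in log2(TPM + 1) on the y axis, by the number of the gene within its cluster on the x axis, with 1 panel per cluster and 1 point per mouse (3 CNT and 5 CCD mice). The CNT points stand clear of the CCD points at Hoxa7, Hoxa9, Hoxa10, Hoxc6, Hoxc9, Hoxc10 and Hoxd10, and no gene of cluster B was called.

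The promoters of Hoxa9 and Hoxd10 are shown because these are the Hox genes with the largest differences in clusters A and D. They are at chr6:52227321-52227620 on the minus strand and chr2:74691641-74691940 on the plus strand (GRCm38.p6, RefSeq, with capitals as above).
Hoxa9: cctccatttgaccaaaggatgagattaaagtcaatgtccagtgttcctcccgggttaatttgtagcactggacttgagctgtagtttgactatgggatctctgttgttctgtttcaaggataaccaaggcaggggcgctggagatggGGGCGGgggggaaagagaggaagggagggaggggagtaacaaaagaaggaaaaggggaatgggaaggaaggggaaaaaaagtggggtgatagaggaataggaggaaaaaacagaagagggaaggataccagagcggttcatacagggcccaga
Hoxd10: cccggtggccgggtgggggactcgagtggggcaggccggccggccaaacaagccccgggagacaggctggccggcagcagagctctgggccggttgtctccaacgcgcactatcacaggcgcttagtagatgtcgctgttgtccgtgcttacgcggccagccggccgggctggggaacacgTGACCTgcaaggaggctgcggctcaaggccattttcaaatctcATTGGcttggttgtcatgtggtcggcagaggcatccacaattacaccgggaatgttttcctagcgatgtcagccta
The Hoxa9 window holds GGGCGG at -103, as 35.7% of all promoters do at any place. The Hoxd10 window holds AGGTCA on the other strand at -69 and CCAAT on the other strand at -26, a motif in 37.4% of all promoters.

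Some genes of the DCT were higher in CNT than in CCD, while the transporter that defines the DCT was near 0 in both. Of 15 genes of the DCT list, 5 were called higher in CNT, beside 0.438% of all genes, among them Emx1, Fxyd2, Slc8a1 and Umod, and the median of the list was 0.14. Emx1, a transcription factor gene, was at 13.1, 12.7 and 14.2 TPM in the CNT mice and 1.77, 3.75, 3.06, 2.73 and 3.27 TPM in the CCD mice (log2 difference 1.90, SE 0.23, adjusted p 2.23e-07), against 77.9 ± 7.2 TPM in DCT. The segments did not overlap, and the DCT lay above both. The Emx1 call was lost when 0.1 instead of 1 was added to each TPM (adjusted p 0.054). Slc12a3, the thiazide-sensitive sodium-chloride cotransporter that defines the DCT, was listed at 0.04 to 0.84 TPM in CNT, against 5782 ± 220.2 TPM in DCT. Pvalb, found in the early DCT, was at 0 to 0.095 TPM in CNT, against 432 ± 87.6 TPM in DCT. Both defining DCT genes were thus under 1 TPM in every CNT mouse. Fxyd2, the gamma subunit of the sodium pump, was at 2160.3, 2133 and 2482 TPM and 474, 572, 761, 461 and 568 TPM (log2 difference 2.02, SE 0.18, adjusted p 2.85e-11), and the segments did not overlap. Wnk1, a kinase that regulates salt transport, was the only one of 11 WNK pathway genes called, beside 0.438% of all genes. It was at 71.1, 78 and 103 TPM against 24.3, 24.5, 20.3, 19.7 and 23.6 TPM (log2 difference 1.84, SE 0.22, adjusted p 1.15e-07). The table does not separate the kidney-specific short isoform of Wnk1.

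Principal cell genes had higher means in CCD, though few were called. All 15 genes of the principal cell list had the higher mean in CCD, beside 60.9% of all genes, 10 of them with no overlap of mice, beside 10.3% of all genes. The median difference was -0.68, but only Aqp4 and Elf5 were called, beside 0.681% of all genes. The CNT and CCD fit called 5 genes higher in CCD, beside 2.41% of all genes in that fit. Aqp4, a basolateral water channel, was at 9.88, 21 and 9.82 TPM in the CNT mice and 82.8, 51, 70.9, 81.2 and 58 TPM in the CCD mice (log2 difference -2.31, SE 0.25, adjusted p 6.66e-09). Elf5, a transcription factor gene of principal cells, was at 2.29, 2.92 and 1.69 TPM and 15.3, 10.1, 6.56, 12.3 and 8.91 TPM (log2 difference -1.80, SE 0.25, adjusted p 5.41e-06). Aqp2, the apical water channel that vasopressin controls, was listed at 5997, 7504 and 5056 TPM and 17021, 12274, 12633, 13781 and 14306 TPM. Each CCD mouse had more Aqp2 than each CNT mouse, yet the adjusted p was 0.355 in the fit over all groups and 0.000376 in the CNT and CCD fit (log2 difference -1.19, SE 0.47 in the former). Fxyd4, a regulator of the sodium pump, was also higher in each CCD mouse, at 2247, 2754 and 1810.4 TPM and 5282, 4763, 5477, 5856 and 4879 TPM, with adjusted p of 0.288 and 0.000178. Npnt, which encodes nephronectin of the basement membrane, was at 386, 461 and 502 TPM and 1113, 915, 1226, 1395 and 967 TPM, with adjusted p of 0.0774 and 0.000202. Avpr2, the vasopressin receptor, ran from 584 to 699 TPM in CNT and from 729 to 1245 TPM in CCD, with no overlap (log2 difference -0.68, adjusted p 0.5). In bulk pieces a smaller number of principal cells and less RNA in each of them cannot be told apart.

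Genes of sodium uptake under aldosterone held no call. None of 17 genes of the epithelial sodium channel and aldosterone pathway was called by limma in either fit (unadjusted p under 0.05 for 2), and their median difference was -0.10. The channel subunit Scnn1b was at 1173, 1210.5 and 1063 TPM in the CNT mice and 1274, 1261, 1363, 1565 and 1199 TPM in the CCD mice (log2 difference -0.21, SE 0.21), and Scnn1g at 1026, 899 and 927 TPM and 1095, 1033, 1023, 1086 and 1037 TPM (log2 difference -0.15, SE 0.16). Hsd11b2, the enzyme that keeps cortisol-like hormones from the aldosterone receptor, was at 3139.9 to 3480.2 TPM in CNT and 3382 to 3803 TPM in CCD (log2 difference -0.10, SE 0.20). Sgk1, a kinase induced by aldosterone, ranged widely within both segments, from 446 to 1199 TPM in CNT and from 68.8 to 921 TPM in CCD. None of the 19 tested potassium channel genes was called by limma, nor any of the 7 tested in the CNT and CCD fit (unadjusted p under 0.05 for 0), with a median of -0.02, and the secretory channel Kcnj1 was at 884 to 924 TPM in CNT and 979 to 1618 TPM in CCD.

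The Aqp2 promoter is shown because Aqp2 was the most abundant of the principal cell genes in both segments (chr15:99578806-99579105 on the plus strand, GRCm38.p6, RefSeq). The 4 motifs are not in these letters.
Aqp2: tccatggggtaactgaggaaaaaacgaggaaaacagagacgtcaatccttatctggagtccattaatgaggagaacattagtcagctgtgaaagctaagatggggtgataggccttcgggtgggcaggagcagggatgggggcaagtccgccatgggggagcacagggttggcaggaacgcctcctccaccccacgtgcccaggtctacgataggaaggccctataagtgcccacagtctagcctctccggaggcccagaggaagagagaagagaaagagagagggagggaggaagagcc

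Few intercalated cell genes were called, though most of those shared by both types had higher means in CNT. Of 16 shared genes, 13 had the higher mean in CNT, beside 29.1% of all genes, and in 7 every CNT mouse lay above every CCD mouse, beside 4.45%. Their summed level was 17067 to 17907 TPM in CNT and 14175 to 15589.5 TPM in CCD, with no overlap. Of the 16, 1 was called higher in CNT, beside 0.438% of all genes (Stap1, log2 difference 1.01, adjusted p 0.0356, a call that held only without CCD mouse 5 among the 8 leave-one-out fits), and the median was 0.19. Foxi1, their master transcription factor, was at 754 to 819 TPM in CNT and 574 to 758 TPM in CCD (log2 difference 0.21, SE 0.28). For type A cells, which secrete acid, 1 of 10 genes was called higher in CCD, beside 0.681% of all genes. Slc26a7, a basolateral anion exchanger, stood at 1.59, 1.62 and 1.89 TPM in the CNT mice and 10.2, 5.65, 10.9, 7.68 and 6.36 TPM in the CCD mice (log2 difference -1.72, SE 0.28, adjusted p 0.000101). Its OMCD mean was 69.8 ± 35.9 TPM, and its call was lost when 5 instead of 1 was added to each TPM (log2 difference -0.95). The chloride-bicarbonate exchanger of the same cells, Slc4a1, was at 452 to 489 TPM in CNT and 445 to 558 TPM in CCD (log2 difference -0.08, SE 0.16). For type B cells, which secrete base, the exchanger pendrin (Slc26a4) was at 2816, 2432 and 2176 TPM and 1429.6, 1886, 1573, 1608 and 2350.0 TPM (log2 difference 0.50, adjusted p 1), with overlap between the segments. Of 11 type B genes only Spink8 was called, beside 0.438% of all genes. It was at 2209.5, 2087 and 2464 TPM and 1031, 1026, 1075, 936 and 1116 TPM (log2 difference 1.12, SE 0.30, adjusted p 0.0369), and that call was lost on leaving out any 1 of the 8 mice. In 3 of the 11 every CNT mouse lay above every CCD mouse, beside 4.45% of all genes, and in 2 the reverse held, beside 10.3%. The summed type B level was 7886 to 8323 TPM in CNT and 5068 to 7219 TPM in CCD, with no overlap. The summed type A level was 4666 to 4781 TPM in CNT and 4472 to 4688 TPM in CCD, with overlap. Of its 10 genes, 4 had every CCD mouse above every CNT mouse, beside 10.3% of all genes, against 2 the reverse, beside 4.45%.

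**Figure D4:**
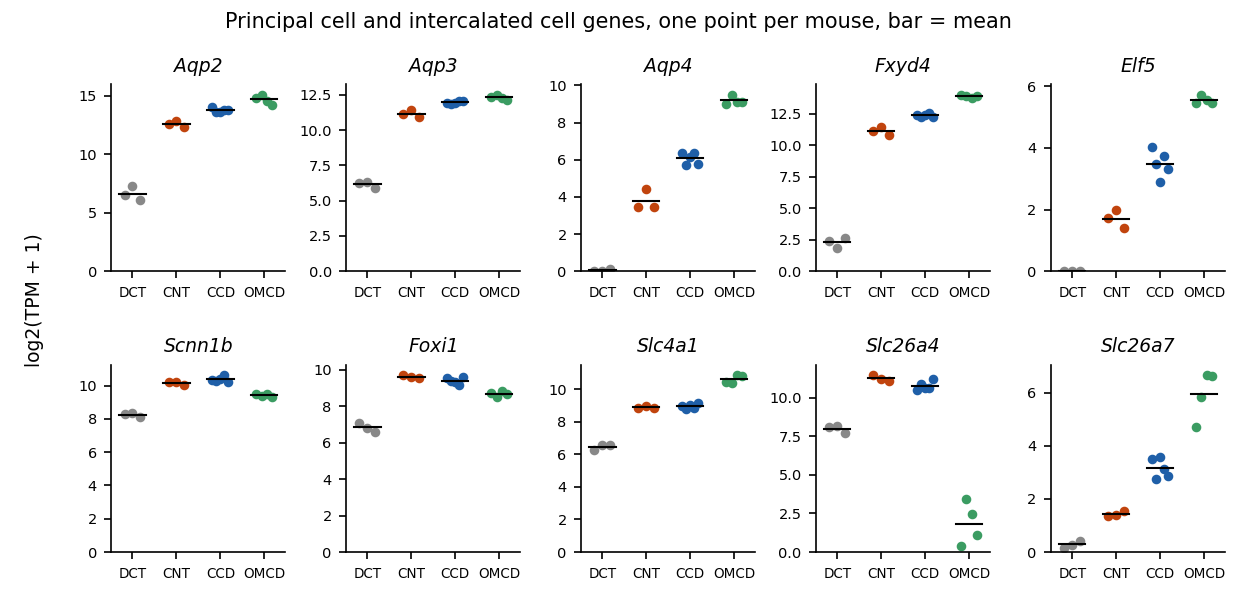
Level of principal cell and intercalated cell genes in log2(TPM + 1) on the y axis, with DCT, CNT, CCD and OMCD on the x axis, 1 point per mouse and a bar at the mean. Aqp4, Elf5 and Slc26a7 step up from CNT to CCD, while the CNT and CCD points of Scnn1b, Foxi1 and Slc4a1 overlap.

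Receptors for hormones and other messengers were called in both directions. Of 43 genes tested, a list that also holds receptor accessory proteins and genes of ligands and of the renin system, 4 were called higher in CNT and 5 higher in CCD, beside 0.438% and 0.681% of all genes, with a median of 0.00. On the CNT side, the calcitonin receptor Calcr was at 2.98, 2.46 and 2.83 TPM in the CNT mice and 0.4, 0.89, 0.36, 0.45 and 0.355 TPM in the CCD mice (log2 difference 1.34, SE 0.23, adjusted p 0.00015). The prostaglandin E receptor Ptger3 was at 67.4, 63 and 63.1 TPM and 20.4, 24.7, 28.5, 22.2 and 32.1 TPM (log2 difference 1.32, SE 0.26, adjusted p 0.00108), and the glucagon receptor Gcgr was at 151, 119.7 and 116 TPM and 55.9, 64, 65.6, 58.1 and 74.9 TPM (log2 difference 1.01, SE 0.23, adjusted p 0.00695). The Gcgr call was lost without CNT mouse 1, CCD mouse 1 or CCD mouse 4. Sctr, the secretin receptor, was the fourth, with a log2 difference of 1.14 and an adjusted p of 1.45e-07. On the CCD side, a different prostaglandin E receptor, Ptger1, was at 26, 35.8 and 26.8 TPM and 112, 85.8, 76, 95 and 80.2 TPM (log2 difference -1.57, SE 0.28, adjusted p 0.000292). Ptger3 and Ptger1 thus lay on opposite sides of the comparison, and the segments overlapped in neither. The adenosine receptor Adora1 was at 17.9, 15.6 and 13.1 TPM and 31.8, 43.3, 29.5, 43.8 and 43.5 TPM (log2 difference -1.27, SE 0.24, adjusted p 0.000917), and the ATP receptor P2ry2 at 10.7, 8.03 and 7.29 TPM and 25.6, 21.1, 16.3, 25.8 and 15.5 TPM (log2 difference -1.17, SE 0.26, adjusted p 0.00527), a call lost without CNT mouse 3. The progesterone receptor gene Pgr was low, at 0.79 to 1.21 TPM in CNT and 2.92 to 3.35 TPM in CCD, and its call was lost without CNT mouse 3, CCD mouse 2 or CCD mouse 4. Gabrg1, a subunit of the GABA-A receptor, completed the CCD side with a log2 difference of -1.66 and an adjusted p of 5.34e-07. Adding 0.1 instead of 1 to each TPM removed the calls of Sctr, Ptger3, Gcgr, Gabrg1 and Pgr. Adding 5 removed those of Sctr, Calcr, Gcgr, P2ry2 and Pgr. Only the calls of Ptger1 and Adora1 held under both.

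**Figure D5:**
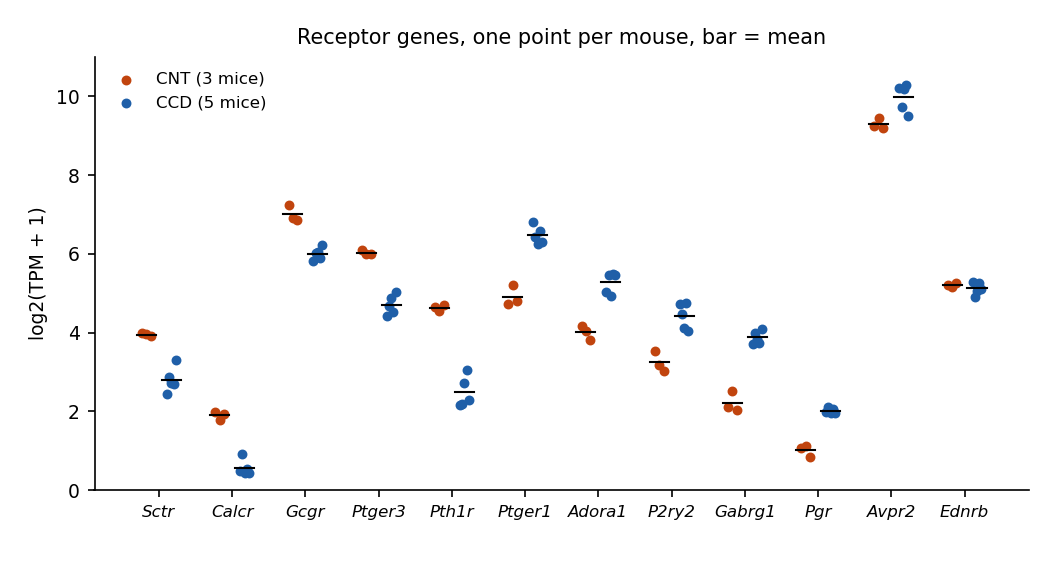
Level of receptor genes (x axis) in log2(TPM + 1) on the y axis, 1 point per mouse and a bar at the mean, for 3 CNT and 5 CCD mice. Sctr, Calcr, Gcgr, Ptger3 and Pth1r stand higher in CNT, Ptger1, Adora1, P2ry2, Gabrg1 and Pgr higher in CCD, and Ednrb overlaps.

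The CCD side included 2 genes of retinoid metabolism and 4 of the ureteric lineage. Aldh1a1, which makes retinoic acid from retinaldehyde, was at 2.47, 3.77 and 1.89 TPM in the CNT mice and 30.0, 18.7, 37.5, 40.5 and 25.2 TPM in the CCD mice (log2 difference -3.07, SE 0.27, adjusted p 4.93e-11). It had the largest difference of the 15 genes ranked toward CCD. Klk1 and Aldh1a1 were put forward as markers of these segments with the data known, so their differences are no independent check of the labels. With its near-identical copy Aldh1a7 (6.65, 10.2 and 5.47 TPM and 19.3, 19.8, 21.3, 21.8 and 19.5 TPM, log2 difference -1.38, adjusted p 0.00375, a call lost without CNT mouse 3) it made up the 2 called of 23 retinoid genes, beside 0.681% of all genes, and reads may have been split between both. The Aldh1a7 call was also lost when 0.1 instead of 1 was added to each TPM (adjusted p 0.308). The retinoid list as a whole had a median of -0.04, and 14 of the 23 had the higher mean in CCD, a share like the 60.9% of all genes. The alcohol dehydrogenase Adh1, which oxidises retinol, was at 662, 1050.3 and 676 TPM and 2115, 1597, 2094, 1657 and 1559 TPM, with no overlap. Its adjusted p was 0.189 over all groups and 0.000837 in the CNT and CCD fit. That fit called 3 of the 11 retinoid genes it tested higher in CCD, beside 2.41% of all genes in that fit. Of 27 ureteric lineage genes, 4 were called higher in CCD, beside 0.681% of all genes, and 25 had the higher mean there, beside 60.9%. The median was -0.35. The signal Wnt7b was at 4.21, 5.25 and 2.31 TPM and 29.4, 23.3, 27.1, 29.1 and 20.5 TPM (log2 difference -2.49, SE 0.28, adjusted p 2.9e-08), and Wnt9b, which the ureteric bud uses to induce nephrons, was at 6.55, 5.36 and 4.99 TPM and 24, 15.7, 17.8, 16.5 and 15.2 TPM (log2 difference -1.50, SE 0.27, adjusted p 0.000275). The co-receptor Gfra1, which works with Ret in branching, was at 1.16, 0.7 and 0.52 TPM and 6.56, 7.67, 7.57, 10.8 and 7.88 TPM (log2 difference -2.33, SE 0.36, adjusted p 3.49e-05). The CCD values lay between the low CNT values and the OMCD means of 96.8 ± 19.9 TPM for Wnt7b and 75.9 TPM (range 51.5 to 93.7 TPM) for Wnt9b. Gata3, a lineage transcription factor, differed by -0.54 (SE 0.23, adjusted p 0.492). The call of Wnt9b was lost when 0.1 instead of 1 was added to each TPM (adjusted p 0.247).

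Other genes at the head of the 2 lists had varied roles. Toward CNT, Cyp2j11 was at 48.4, 30.5 and 29.4 TPM against 0.6, 0.33, 1.3, 0.83 and 0.81 TPM (log2 difference 4.38, SE 0.28, adjusted p 3.32e-15), a cytochrome P450 gene whose close paralogs make the count uncertain. Spp1, which encodes osteopontin, was at 4775, 3905 and 5720.0 TPM against 721, 546, 703, 412 and 553 TPM (log2 difference 3.04, SE 0.50, adjusted p 0.000103), and Ly6a at 953, 703 and 886 TPM against 119.8, 131, 126, 93.9 and 117 TPM (log2 difference 2.84, SE 0.26, adjusted p 1.99e-10). Ush1c, a scaffold of microvilli, was at 56.4, 55.1 and 62.4 TPM against 7.52, 7.17, 9.52, 8.35 and 8.4 TPM (log2 difference 2.68, adjusted p 6e-13). Clec18a, Scn4b and Sulf2 differed by 3.25, 2.93 and 2.70. Toward CCD, the claudin gene Cldn19, a tight junction component of the thick limb, was at 0.35, 0.815 and 0.145 TPM against 5.48, 7.23, 15, 17.4 and 5.65 TPM (log2 difference -2.84, SE 0.47, adjusted p 0.000123). It was the only one of 26 tight junction genes called, beside 0.681% of all genes. Of the 26, 12 had every CCD mouse above every CNT mouse, beside 10.3% of all genes, and 4 the reverse, beside 4.45%. Their median difference was -0.28. Anxa1, which encodes an annexin, was at 30.8, 48.6 and 25.8 TPM against 146, 132, 164, 212 and 127 TPM (log2 difference -2.17, adjusted p 7.71e-08). S100a14, Eprn, Plk2, B4galnt2, Dab1, Defb29, Ache, Nipal1 and AC154187.2 were also on the list, with differences from -2.49 for S100a14 to -1.88 for AC154187.2. The calls of Dab1 (without CNT mouse 3) and AC154187.2 (without CNT mouse 1, CNT mouse 3 or CCD mouse 3) were lost when a mouse was left out. Those of S100a14, B4galnt2, Defb29, Ache, Nipal1 and AC154187.2 were lost when 0.1 instead of 1 was added to each TPM. Quantile normalization removed the calls of Dab1 and AC154187.2, and median ratio rescaling that of AC154187.2.

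Markers of other cells moved with the segments in part. All 10 endothelial genes were higher in every CNT mouse than in every CCD mouse, beside 4.45% of all genes, with a median difference of 0.94, and their summed level ran from 358.5 to 406.5 TPM in CNT and from 177 to 284 TPM in CCD. Eng alone was called, beside 0.438% of all genes. It was at 19, 23.9 and 18.7 TPM against 8.21, 5.72, 9.29, 6.83 and 9.34 TPM (log2 difference 1.27, adjusted p 0.0428), and the call held only without CCD mouse 5 among the 8 leave-one-out fits. In the CNT and CCD fit Emcn and Kdr were called too (adjusted p 0.00162 and 0.00146), beside 1.33% of all genes called higher in CNT in that fit. The 10 leukocyte genes had a median difference of 0.49, none was called by limma in either fit (unadjusted p under 0.05 for 0), and their summed level of 228 to 611 TPM in CNT overlapped that of 153 to 402 TPM in CCD. All 10 had the higher mean in CNT, beside 29.1% of all genes, and 1 had every CNT mouse above every CCD mouse, beside 4.45%. Of the 10 tested genes of the T cell list, 1 was called higher in CNT, beside 0.438% of all genes. This was Cd8a (34.3, 41.8 and 22.3 TPM against 9.1, 3.41, 5.5, 0.43 and 4.95 TPM, log2 difference 2.75, adjusted p 6.37e-09), while Cd3e was at 0.01 to 0.535 TPM and Cd8b1 at 0.03 to 0.065 TPM in CNT. Of 14 proximal tubule genes, Kap and Slc27a2 were called higher in CCD, beside 0.681% of all genes. Kap was at 113, 8.79 and 5.72 TPM against 91.4, 104, 439, 437 and 121 TPM (log2 difference -3.30, SE 0.91, adjusted p 0.0434), with CNT mouse 1 inside the CCD range, and its call was lost without any of 6 of the mice (CNT mice 2 and 3 and CCD mice 2 to 5). Slc27a2 was at 11.9, 2.3 and 0.985 TPM against 8.87, 13.7, 25.4, 31.6 and 22.2 TPM, also with overlap, and its call was lost without CNT mouse 2 or 3. The summed proximal tubule level was 25.3 to 191 TPM in CNT and 124 to 613 TPM in CCD. Among 9 thick limb genes, Umod and Ptger3 were called higher in CNT and Cldn19 higher in CCD, beside 0.438% and 0.681% of all genes. The part of any of these cells in the results above was not tested.

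Other lists held few calls or none. None of 23 Notch pathway genes, 17 genes of prostaglandin and nitric oxide synthesis, 10 of osmolyte transport and hypertonicity, 19 keratins or 17 genes of collagen IV and laminins was called by limma over all groups, nor any of the 20, 11, 8, 7 and 13 of them tested in the CNT and CCD fit. The unadjusted p was under 0.05 for 4, 0, 2, 3 and 5 of them in that order. Of 31 glycolysis entries (Aldoa is listed under 2 identifiers) 2 were called higher in CNT, beside 0.438% of all genes. These were Eno2 (5.63, 5.24 and 4.79 TPM against 1.04, 2.41, 1.44, 1.49 and 3.21 TPM, log2 difference 1.13, adjusted p 0.00641) and Pgam2 (log2 difference 1.13, adjusted p 0.0326). Both calls were lost when single mice were left out, that of Eno2 without CNT mouse 1 and that of Pgam2 without any mouse but CCD mouse 3. Of 95 respiratory chain genes 1 was called higher in CCD, beside 0.681% of all genes, and none higher in CNT. This was Cox6b2 (log2 difference -1.03, adjusted p 0.0375, a call kept only without CCD mouse 1 or CCD mouse 5). Of the 95, 70 had the higher mean in CNT, beside 29.1% of all genes, with a median difference of 0.10. In 30 of the 95 every CNT mouse lay above every CCD mouse, beside 4.45% of all genes, and in 5 the reverse held, beside 10.3%. Their summed level was 94778 to 102546 TPM in CNT and 83722 to 94389.9 TPM in CCD, with no overlap. None of 20 immediate early genes was called (unadjusted p under 0.05 for 3), though Myc was called higher in CCD in the CNT and CCD fit (adjusted p 0.0359), and these varied strongly between mice: Fos was at 1002, 184 and 406 TPM in the CNT mice and 127, 1900.0, 930.4, 827 and 166 TPM in the CCD mice, so that the ranges of the segments overlapped. A p that misses the threshold does not show that the segments were alike in these genes.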

How the data were processed

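Per the submitters' processing notes, reads were aligned with STAR 2.5.4a and quantified with RSEM 1.3.0. The genome build is not given in the sources used here. The authors deposited TPM values per gene and sample, 54532 genes in all, with no counts. Strand use in counting is not given either. The 3 single-cell samples were not analysed here. Values were taken as log2(TPM + 1), and pieces of one mouse number and segment were averaged. Genes with at least 1 TPM in at least 3 of the 53 combinations of mouse number and segment were kept (33793). A linear model with 1 mean per segment over 15 groups was fitted in limma 3.58.1 (R 4.3.3) with trended variances and Benjamini-Hochberg adjustment over all genes kept. No 2 of the 13 CNT and CCD columns held identical values, and TPM totals were 999999.0 to 1000000.6. The named genes were members of the lists and the 15 with the largest difference in each direction among called genes whose mice did not overlap and whose mean reached 10 TPM in the higher segment (84 toward CNT and 111 toward CCD), passing over predicted, Rik, mitochondrial, ribosomal protein and pseudogene names. A few genes that the rule or the lists hold are counted but not reported here. Genes outside the rule were named after their values were seen only in the closing section. Samples, gene lists and tests were chosen with earlier results of these data known, so no list is independent evidence. The number of mice (3 and 5) limits precision. The fitting script was tested on simulated data. Promoters came from RefSeq on GRCm38.p6, matched by symbol for 6 genes, and were used only as sequence.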

Additional observations from a re-analysis of the deposited data

Results flagged for a closer look

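Of the 89 called genes checked, 2 had a CCD mouse that stood apart from the other 4 by Dixon's test on 5 values, which flags about 1 in 20 groups by chance; CNT, with 3 mice, was not tested. For Klk1, the kallikrein gene, CCD mouse 3 was listed at 256 TPM, against 71.4 to 121 TPM in the others. For Calcr, the calcitonin receptor, CCD mouse 2 was at 0.89 TPM, against 0.355 to 0.45 TPM. These 2 mice remained on their own segment's side of the comparison, and the genes were called without each of them.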

How the results depend on the processing

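None of the 682 tested genes of the lists and of the naming rule reversed a call in 13318 pairs of gene and alternative, over 20 alternatives whose filters did not each keep every gene; 33 of the 92 called lost the call in none that tested them, 59 lost the call in at least 1 (264 pairs of gene and alternative) and 30 others gained one. The count of 378 calls was 166 with a pseudocount of 5 (68 higher in CNT, 98 in CCD), 251 after quantile normalization (104 higher in CCD) and 264 with a pseudocount of 0.1, and leaving out 1 mouse gave 219 (without CNT mouse 3) to 396, with 104 to 152 higher in CNT and 115 to 244 higher in CCD. With the mouse number as a replicate block it was 375. Deviations of same-numbered mice correlated at -0.211, -0.0387 and 0.0476 over 10317 genes, and those of differently numbered mice at -0.152 to 0.169. So few correlations cannot show whether a number marks the same animal in both segments. Treating samples as independent gave 452 calls, DCT to OMCD mice alone 512 and no filter 346, all within 1.5 times of the main count; medians over all genes moved by less than 0.1. The difference in genes listed was -564 (exact permutation p 0.0714) at 0.5 TPM and -298 (p 0.0357) at 5 TPM; without single mice it was -451 to -338 with exact p of 0.0571 to 0.0952, the smallest such designs give. Depth is unknown from TPM, so a value near 0 does not show absence.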

Other observations

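Genes of cell division, a list assembled after their values were seen, were low in both segments and lower in CNT. All 26 of its genes had the higher mean in CCD, beside 60.9% of all genes, 14 were called higher in CCD, beside 0.681% of all genes, and the median difference was -1.39. The CNT and CCD fit called 21 of the 25 it tested, beside 2.41% of all genes in that fit. Because the list was picked for this, the counts are a description. Their summed level ran from 81.6 to 153 TPM in CNT and from 184.5 to 463 TPM in CCD. Mki67, found in cycling cells, was at 0.61, 1.23 and 0.775 TPM in the CNT mice and 2.45, 4.91, 2.67, 6.06 and 2.1 TPM in the CCD mice (log2 difference -1.26, SE 0.25, adjusted p 0.00144). Cdk1, the kinase that drives entry into mitosis, was at 7.11, 12.1 and 5.66 TPM and 22.1, 46.4, 26.2, 42.2 and 14.2 TPM (log2 difference -1.72, SE 0.44, adjusted p 0.0239). Of the 14 calls, 13 were lost on leaving out at least 1 mouse (all of them without CNT mouse 3), and only that of Mki67 held in each such fit. With a pseudocount of 0.1 none of the 14 was called (adjusted p 0.116 for Mki67). The Mki67 call was also lost with a pseudocount of 5 (log2 difference -0.54) and after quantile normalization (-0.82). CCD mice 2 and 4 had the highest Cdk1 and Mki67.

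Genes of the circadian clock, also listed after their values were seen, included some that varied widely among the CCD mice. Dbp, a clock output gene, was at 9.1, 7.12 and 7.76 TPM in the CNT mice and 14, 170.2, 12.1, 141 and 152 TPM in the CCD mice, with CCD mice 1 and 3 near the CNT mice and CCD mice 2, 4 and 5 far above (log2 difference -2.75, SE 0.87, adjusted p 0.119, or 0.0437 in the CNT and CCD fit, which called it). Nr1d1, a repressor in the clock, was at 54.2, 32 and 44.1 TPM and 47.6, 211, 60.6, 182 and 188 TPM (adjusted p 0.026), and its call was lost in the CNT and CCD fit (adjusted p 0.0525) and without any of the CNT mice or CCD mouse 2, 4 or 5. Arntl, the clock's activator, ran the other way, at 43.3, 44.5 and 48.8 TPM and 45.4, 11.5, 41.1, 13.1 and 15 TPM. Of 17 clock genes, Nr1d1 and Nr1d2 were called higher in CCD, beside 0.681% of all genes, and the call of Nr1d2 was likewise lost without any 1 of the CNT mice or CCD mouse 2, 4 or 5. The CNT and CCD fit called 6 of the 15 it tested higher in CCD, beside 2.41% of all genes in that fit. These were Nr1d2, Dbp, Cry2 (adjusted p 0.00913 in limma), Per2 (0.00554), Per3 (0.0257) and Tef (0.0147). It called 1 higher in CNT, Nfil3 (adjusted p 0.0364), beside 1.33%.

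Dcn, the proteoglycan decorin of the stromal list, was at 72.1, 79.2 and 62.1 TPM in the CNT mice and 51.5, 55.2, 53.7, 58.8 and 60.2 TPM in the CCD mice, against 2.16 ± 0.712 TPM in DCT and 1.84 ± 1.4 TPM in OMCD, while the other fibroblast genes of the list, such as Col1a1 (0.02 to 0.725 TPM in CNT) and Pdgfra (0.01 to 0.5 TPM), were near 0. None of the 10 stromal, 7 erythroid or 6 podocyte genes was called by limma over all groups, nor any of the 4, 1 and 3 tested in the CNT and CCD fit, and the unadjusted p was under 0.05 for 0, 0 and 2 of them.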
